A study of Mus musculus with 6 samples.

Results

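A set of 10 genes that the transcription factor p53 switches on directly was followed in the hippocampus of mice with knockdown of Hepacam, the gene of a cell adhesion molecule of astrocytes. They are Cdkn1a, Btg2 and Gadd45a, Phlda3, Trp53inp1, Eda2r and Bax, Mdm2 and Ccng1, and Sesn1, among 29872 genes in the deposited files. They were listed by name as known direct p53 targets, and selected on their RPKM levels in these same libraries, shHepaCAM against shControl. Their differences between the groups are therefore given as a description, without a test. RNA was sequenced from hippocampus of C57BL/6 J mice in 6 libraries. The labels give 3 libraries of the genotype WT, titled shControl, and 3 of the genotype HepaCAM knockdown, titled shHepaCAM, made by injection of an adeno-associated virus (AAV) into the CA1 field of both hippocampi. They state neither the ages, nor the promoter or cell type that the virus drives, nor whether the control mice received a vector, nor whether each library is 1 mouse, so p-values here speak of the scatter among libraries, part of which may be technical. Levels are RPKM, reads scaled to gene length and sequencing depth, and between 14903198 and 17341842 reads stood behind each library.

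The labels were first checked against the data. Hepacam had 37.3, 33.4 and 35.9 RPKM in the controls and 24.4, 22.6 and 20.9 RPKM in the knockdown libraries, each in the order of replicates 1 to 3 as throughout, and its log2 change was -0.63 (SE 0.07; limma adjusted p = 0.00924), on tissue that holds injected and other cells. The call was lost in 2 of 16 alternatives: without shControl replicate 3 (limma adjusted p = 0.0526), and without both shControl replicate 1 and shHepaCAM replicate 3 (0.0695). All 7 hippocampal neuron markers, among them Prox1 and Wfs1, were detected and tested. Of the libraries, shControl replicate 1 and shHepaCAM replicate 3 were low in choroid plexus markers, with a summed level of 71.2 and 32.2 RPKM against 1717 to 4325 RPKM in the other 4. In bulk tissue, fewer cells of a type and less RNA per cell cannot be told apart.

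p53 is kept scarce in healthy cells by the ubiquitin ligase Mdm2 and is stabilised after DNA damage and other stress. It then binds DNA at a site built from paired 10-base units, here called decamers, and raises genes that halt the cell cycle, repair DNA, alter metabolism or start cell death. Neurons no longer divide, and in them the pathway is best known for its part in death after injury. Several of its targets also answer to other signals: Btg2 is induced by neuronal activity, and Gadd45a by the stress factors of the unfolded protein response.

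The promoters of the 10 genes were searched for the letters that p53 is known to bind. RefSeq promoter sequences on build GRCm38.p6, from 250 bases before to 50 bases after each start, were matched for 9 of the 10 genes (11 promoters); Trp53inp1 was not matched. The p53 decamer consensus, which reads the same on both strands, occurred in 6 of the 11 promoters, each of a different gene, and in 8.36% of all 32851 promoters. Among the other lists described below it occurred in 10 of 55 promoters of other p53 targets, and in 0 of 22 promoters of family relatives. Since the 10 genes and the other targets were listed as known p53 targets, nothing is read from these shares. The stretches that hold it are shown 5′ to 3′ on the gene's strand, with the decamer in capitals; in that of Btg2, which has no decamer in this window, the capitals mark TGACGTCA, the cyclic AMP response element through which neuronal activity acts on many genes.
Cdkn1a: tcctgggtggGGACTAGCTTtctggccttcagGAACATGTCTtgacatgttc
Mdm2: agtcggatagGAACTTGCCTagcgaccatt
Ccng1: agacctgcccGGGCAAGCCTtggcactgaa
Bax: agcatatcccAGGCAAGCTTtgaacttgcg
Gadd45a: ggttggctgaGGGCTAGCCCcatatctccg
Sesn1: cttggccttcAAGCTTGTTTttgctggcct
Btg2: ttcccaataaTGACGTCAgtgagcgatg

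On GRCm38.p6 the stretch of Cdkn1a lies at chr17:29090896-29090947 (plus strand), that of Mdm2 at chr10:117710925-117710954 (minus) and that of Ccng1 at chr11:40755452-40755481 (minus). Those of Bax and Gadd45a lie at chr7:45467080-45467109 and chr6:67037428-67037457 (both minus), that of Sesn1 at chr10:41887256-41887285 (plus) and that of Btg2 at chr1:134079304-134079331 (minus). All lie before the annotated start, outside the transcript that starts there. In Cdkn1a the decamers start 73 and 51 bases before the upstream start of the gene, 12 bases apart. The 10 letters right after the second, tgacatgttc, differ from the consensus at 1 letter and were not counted as a decamer. Which of these units p53 binds as a pair was not tested. A pair of decamers at most 13 bases apart was found in 24 of the 32851 promoters, or 0.0731%. TGACGTCA, also the same on both strands, was found in 1 of the 11 promoters, that of Btg2, and in 1.79% of all promoters. In the lists described below it was in 2 of 55 promoters of other p53 targets and 1 of 22 of family relatives. It was also in 1 of 12 promoters of immediate early genes and 1 of 13 of stress response genes. A match is a string of letters in a window, not a measured binding site, and the absence of one says only that these letters are not in that window.

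The genes that halt division were all higher in every knockdown library, as 20.9% of all genes tested were. Cdkn1a (ENSMUSG00000023067), which encodes the cyclin-dependent kinase inhibitor p21, gave 8.65, 9.93 and 10 RPKM in the controls, against 19.8, 32.5 and 20.3 RPKM after knockdown. All 3 knockdown libraries lay above all controls, and shHepaCAM replicate 2 was the highest. The means were 9.54 ± 0.768 and 24.2 ± 7.20 RPKM (SD, n = 3 each), a ratio of 2.54, and the log2 change was 1.22 (SE 0.18). Every log2 change here is on the log2(RPKM + 1) scale, shHepaCAM minus shControl, which understates the change of genes with low levels.

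Btg2 (ENSMUSG00000020423), an antiproliferative protein that promotes the decay of messenger RNA, had the largest log2 change of the 9 members tested. It was at 9.93, 9.50 and 7.24 RPKM in the control and at 27.1, 43.6 and 19.2 RPKM in the knockdown libraries, in replicate order. The groups did not overlap, but the knockdown libraries spread widely, with a mean of 30.0 ± 12.5 against 8.89 ± 1.44 RPKM (SD, n = 3 each), a ratio of 3.37 and a log2 change of 1.58 (SE 0.27). Without shHepaCAM replicate 2 the log2 change was 1.28, and without shHepaCAM replicate 3 it was 1.85.

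Gadd45a (ENSMUSG00000036390), a stress sensor that binds p21 and the replication clamp PCNA, was a gene of low level. Its controls were at 1.09, 1.63 and 0.875 RPKM and its knockdown libraries at 2.19, 3.30 and 2.28 RPKM, without overlap. These values rest on 106 control and 221 knockdown reads, and the log2 change was 0.71 (SE 0.18).

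Of the genes tied to cell death, 3 were higher in every knockdown library, as 20.9% of all genes tested were, and Bax was not. Phlda3 (ENSMUSG00000041801), which blocks the survival kinase Akt at the membrane, stood at 21, 18.3 and 19.4 RPKM in the control and at 33.8, 31.0 and 33.9 RPKM in the knockdown libraries. The knockdown libraries agreed closely with one another, at 32.9 ± 1.66 against 19.6 ± 1.31 RPKM (SD, n = 3 each), a ratio of 1.68 and a log2 change of 0.72 (SE 0.07). Trp53inp1 (ENSMUSG00000028211), a nuclear protein that promotes p53 activity and autophagy, was at 2.27, 2.35 and 2.61 RPKM and at 4.4, 6.03 and 5.17 RPKM. Its groups were well apart, with a log2 change of 0.86 (SE 0.11).

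Eda2r (ENSMUSG00000034457), a death receptor of the tumour necrosis factor family, was the lowest of the 10 genes. It was at 0.0893, 0.0979 and 0.125 RPKM in the control and 0.386, 0.631 and 0.456 RPKM in the knockdown libraries, from 9, 10 and 11 and from 36, 60 and 44 reads. The knockdown libraries had 4.76 times the reads at equal depth, with an exact 95% interval of 3.19 to 7.32 that covers counting error only. At a mean under 1 RPKM, Eda2r fell below the filter and was not tested; with no filter its log2 change was 0.43 (SE 0.08), a scale on which so low a gene can hardly move.

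Bax (ENSMUSG00000003873), the pore-forming protein of the mitochondrial death pathway, did not separate the groups. It stood at 13.6, 14.2 and 14.5 RPKM in the control and at 15.6, 13.5 and 13.5 RPKM in the knockdown libraries, with shHepaCAM replicate 1 the highest and replicates 2 and 3 just under the lowest control. The log2 change was 0.01 (SE 0.07), and its sign turned under 5 of the 16 alternatives.

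The genes that feed back on p53 differed from each other. Ccng1 (ENSMUSG00000020326), cyclin G1, which helps to activate Mdm2 through a phosphatase, was at 18.2, 20.6 and 19.5 RPKM in the control and at 26.4, 29.4 and 27.7 RPKM in the knockdown libraries. These groups did not overlap, with a ratio of 1.43 and a log2 change of 0.50 (SE 0.07). Mdm2 itself (ENSMUSG00000020184), the ligase that marks p53 for destruction, was at 10.3, 11.7 and 10.9 RPKM and at 12.3, 13.8 and 10.7 RPKM. Here shHepaCAM replicate 3 lay within the control range, and the log2 change was 0.14 (SE 0.10).

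Sesn1 (ENSMUSG00000038332), a sestrin that restrains the growth kinase complex mTORC1, overlapped between the groups. Its controls were at 16, 16.4 and 17.1 RPKM and its knockdown libraries at 15.5, 18.1 and 18.7 RPKM, with shHepaCAM replicate 1 the lowest of all 6. The log2 change was 0.07 (SE 0.08).

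**Figure D1:**
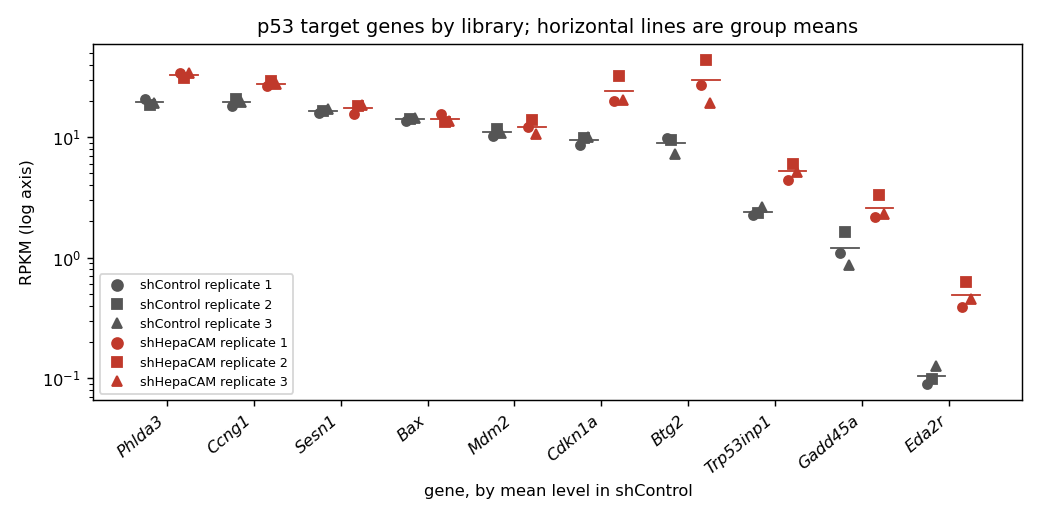
RPKM of the 10 p53 target genes on a log axis, 1 point per library, control libraries in grey and knockdown libraries in red, with lines at the group means. For 7 genes all 3 red points lie above all 3 grey points, while Sesn1, Bax and Mdm2 overlap. Among the 9 members tested this held for 6, beside 20.9% of all genes tested. The 10 genes were chosen with this contrast known, so nothing is read from these shares.

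Of the 10 genes, 9 passed the filter of a mean of 1 RPKM over the 6 libraries. In the fit over all 13864 genes tested, 5 of the 9 were past an adjusted p of 0.05 in limma, all higher, and 4.23% of all genes were called higher and 1.84% lower (6.07% in either direction). The knockdown libraries lay wholly above the controls for 6 of the 9, and for 20.9% of all genes. Because the genes were chosen with this contrast known, nothing is read from these shares. The 5 were Phlda3, Trp53inp1, Cdkn1a, Ccng1 and Btg2. The number past the threshold was 3, 2 and 1 without shControl replicates 1, 2 and 3, 3 with no filter, and 2 without both libraries low in choroid plexus markers. Where shHepaCAM replicates were left out 1 at a time it remained 5.

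The order of the levels, which RPKM allows to be compared between genes of different length, changed between the groups. In the control libraries Phlda3 and Ccng1 were the highest and overlapped each other, followed by Sesn1, Bax and Mdm2, each apart from its neighbour. Cdkn1a at 8.65 to 10 RPKM and Btg2 at 7.24 to 9.93 RPKM came next and overlapped, and Trp53inp1, Gadd45a and Eda2r followed, each apart from the one before. In the knockdown libraries Phlda3, Btg2, Ccng1 and Cdkn1a led by mean level, in that order, above Sesn1, Bax and Mdm2, but the 19.2 to 43.6 RPKM of Btg2 covered the whole ranges of Phlda3, Ccng1 and Cdkn1a.

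The changes were not even across the knockdown libraries. As log2 differences from the control mean, Btg2 was at 1.52, 2.18 and 1.04 in shHepaCAM replicates 1, 2 and 3, and Cdkn1a at 0.99, 1.67 and 1.02. Phlda3 was at 0.76, 0.64 and 0.77 and Ccng1 at 0.42, 0.57 and 0.49, so these 2 genes were much alike in the 3 libraries. Among the 9 members tested, shHepaCAM replicate 2 was the highest of the 6 libraries for 6, as it was for 4730 of the 13864 genes.

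Neuronal immediate early genes, which are switched on within minutes of activity as Btg2 is, had a less even median over the knockdown libraries than the p53 targets. Of 12 tested, Npas4 and Ier2, both transcription regulators, rose, 0 fell and 10 did not pass (limma adjusted p = 0.0299 and 0.0395), beside 4.23% of all genes called higher. The knockdown libraries lay wholly above the controls for 8 of the 12, beside 20.9% of all genes. The list's median log2 change was 0.88 beside 0.05 for all genes. Npas4 was at 7.17, 8.24 and 4.93 RPKM in the control and 17.3, 31.7 and 15.4 RPKM in the knockdown libraries, and Ier2 at 6.03, 5.87 and 4.5 and at 14.1, 26.7 and 10.7 RPKM. The median log2 difference from the control mean over the 12 genes was 0.89, 1.60 and 0.24 in shHepaCAM replicates 1, 2 and 3, and shHepaCAM replicate 2 was the highest library for 11 of them. The same median over the 9 p53 targets tested was 0.55, 0.64 and 0.59. Within both lists the genes spread: in shHepaCAM replicate 3 the p53 targets ran from -0.06 for Bax to 1.04 for Btg2. In shHepaCAM replicates 1, 2 and 3 Npas4 was at 1.26, 2.10 and 1.10 and Ier2 at 1.23, 2.11 and 0.87. Btg2, at 1.52, 2.18 and 1.04, was about as uneven as these. Of the 12 genes, 7 passed without shHepaCAM replicate 3, and 0 passed without any 1 of the control libraries. What neuronal activity has to do with the levels of the 10 genes was not tested.

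Genes of the integrated stress response, which runs through the factors Atf4 and Ddit3, were also followed. Of 11 tested, Ddit3, Chac1, Ppp1r15a, Cebpb and Atf3 rose, Asns, the asparagine synthetase, fell, and 5 did not pass, beside 6.07% of all genes called; the list had a median log2 change of 0.48 beside 0.05 for all genes. Ddit3, a death-promoting transcription factor, was at 14.0, 13.4 and 13.3 RPKM in the control and 25.7, 28.7 and 28.7 RPKM in the knockdown libraries (log2 change 0.98, SE 0.06, limma adjusted p = 0.00139). Atf3, a stress-induced repressor that is itself a known p53 target, was at 1.09, 1.55 and 0.623 and at 4.49, 12.3 and 5.13 RPKM (log2 change 1.90, SE 0.34, adjusted p = 0.027). Chac1, Cebpb and Ppp1r15a rose by 1.05, 1.04 and 0.61, and Asns fell by 0.28. The call of Asns, the only lower one, was lost in 9 of 16 alternatives. Cebpb lost its call in 7 of 16, Atf3 in 6 of 15 and Ppp1r15a in 4 of 16, while Ddit3 and Chac1 kept theirs in all. The count of 6 genes past the threshold was 3, 2 and 2 without shControl replicates 1, 2 and 3, and 3 without shHepaCAM replicate 3.

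**Figure D2:**
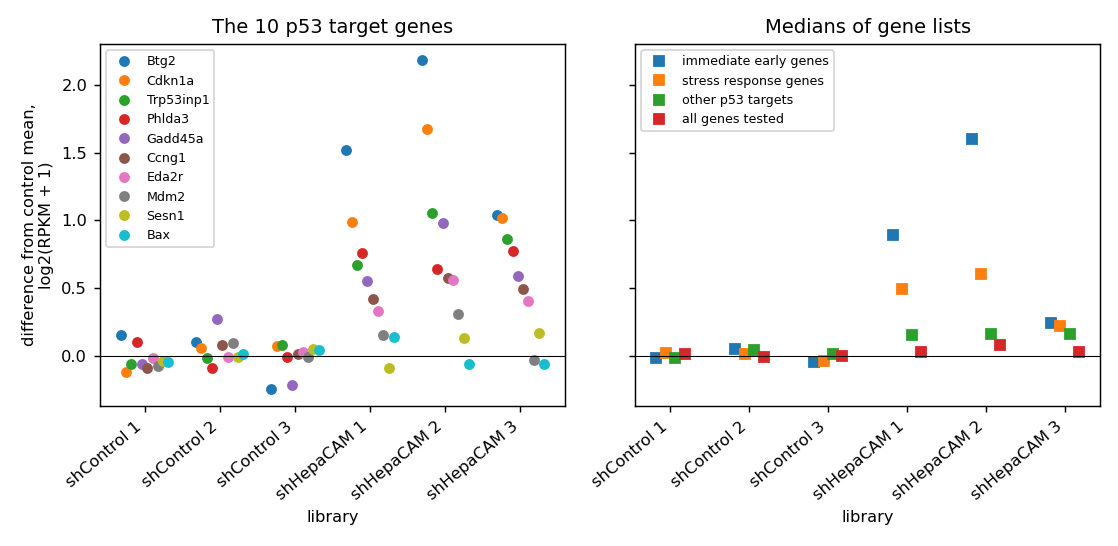
Difference from the control mean on the log2(RPKM + 1) scale in each library, for the 10 genes (left) and for the medians of gene lists (right: 12 immediate early, 11 stress response and 42 other p53 target genes, and all 13864 genes tested). In shHepaCAM replicate 3 the 10 genes run from -0.06 (Bax) to 1.04 (Btg2), and the immediate early median is 0.24.

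The gene of p53 itself rose slightly. Trp53 was at 8.63, 8.72 and 8.38 RPKM in the control and at 10.2, 11.9 and 11.1 RPKM in the knockdown libraries, without overlap. The log2 change was 0.33 (SE 0.07, limma adjusted p = 0.0421), a call lost in 11 of 16 alternatives, in which adjusted p-values ran from 0.0285 to 0.184; it was lost with any library but shHepaCAM replicate 1 left out. Of 11 p53 relatives and regulators tested, only Trp53 passed and 0 fell, beside 4.23% called higher and 1.84% lower among all genes. The list's median log2 change was 0.11. Mdm4, the partner of Mdm2 in holding p53 down and named here after its values were seen, was at 6.54, 6.09 and 6.02 RPKM and at 6.72, 8.92 and 6.47 RPKM (log2 change 0.20, adjusted p = 0.328). The level of p53 protein, which is set mainly by its stability, was not measured.

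Other targets of p53 gave a mixed picture, with few calls. A list of 51 further known targets held 42 that were tested: 3 rose, 0 fell and 39 did not pass, so 3 of 42 stood beside 4.23% called higher among all genes. Atf3, a known p53 target that rose, was counted with the stress response genes and is not among the 42. Knockdown libraries lay wholly above controls for 18 of the 42 and for 20.9% of all genes, and the list's median log2 change was 0.17, beside 0.05 for all genes. At an unadjusted p of 0.05, 16 of the 42 were higher and 1 lower, beside 16.3% and 7.92% of all genes. Limma-voom on read numbers called 4 higher and 0 lower, beside 574 and 471 of all genes.

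The 3 that rose came from different arms of the response. Bbc3, which encodes the BH3-only death protein Puma, was at 9.58, 8.33 and 6.86 RPKM in the control and at 18.5, 22.6 and 16.7 RPKM in the knockdown libraries. Its log2 change was 1.13 (SE 0.14), its adjusted p in limma was 0.00939, and it passed under every one of the 16 alternatives (0.00343 to 0.0462). Ier5, an immediate early gene that acts on heat shock factor, went from 18 ± 0.815 to 32.1 ± 4.4 RPKM, and Abhd4, a lipid hydrolase, from 22.6 ± 0.953 to 32.9 ± 1.68 RPKM (SD, n = 3 each; both adjusted p = 0.00924). Abhd4 was at 31.5, 32.5 and 34.8 RPKM in shHepaCAM replicates 1, 2 and 3, among the more even of these genes. Ier5 and Abhd4 each lost the call in 2 of 16 alternatives, where their adjusted p reached 0.0599 and 0.0767. Without both libraries low in choroid plexus markers, 1 of the 3 passed.

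By arm, 1 of 8 arrest and growth genes, 1 of 11 cell death genes and 1 of 14 genes of metabolism, redox and autophagy rose, and 0 fell in each. None of 6 DNA repair genes and none of 3 feedback genes passed in limma, and none in limma-voom; at an unadjusted p of 0.05, 2 of the repair genes were higher and none of the feedback genes. The medians of these 5 arms were 0.19, 0.17, 0.24, 0.08 and 0.10. Zmat3, an RNA-binding target of p53 and named here after its values were seen, averaged 7.02 ± 0.108 and 7.10 ± 0.150 RPKM (SD, n = 3 each). Perp, a membrane protein of epithelia that was also named after its values were seen, ran the other way, at 2.16, 7.65 and 5.29 RPKM in the control and 3.66, 2.48 and 0.875 RPKM in the knockdown libraries (log2 change -0.83, SE 0.44, adjusted p = 0.29). It was low in the 2 libraries that were low in choroid plexus markers, and the part of that tissue in its values was not tested.

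**Figure D3:**
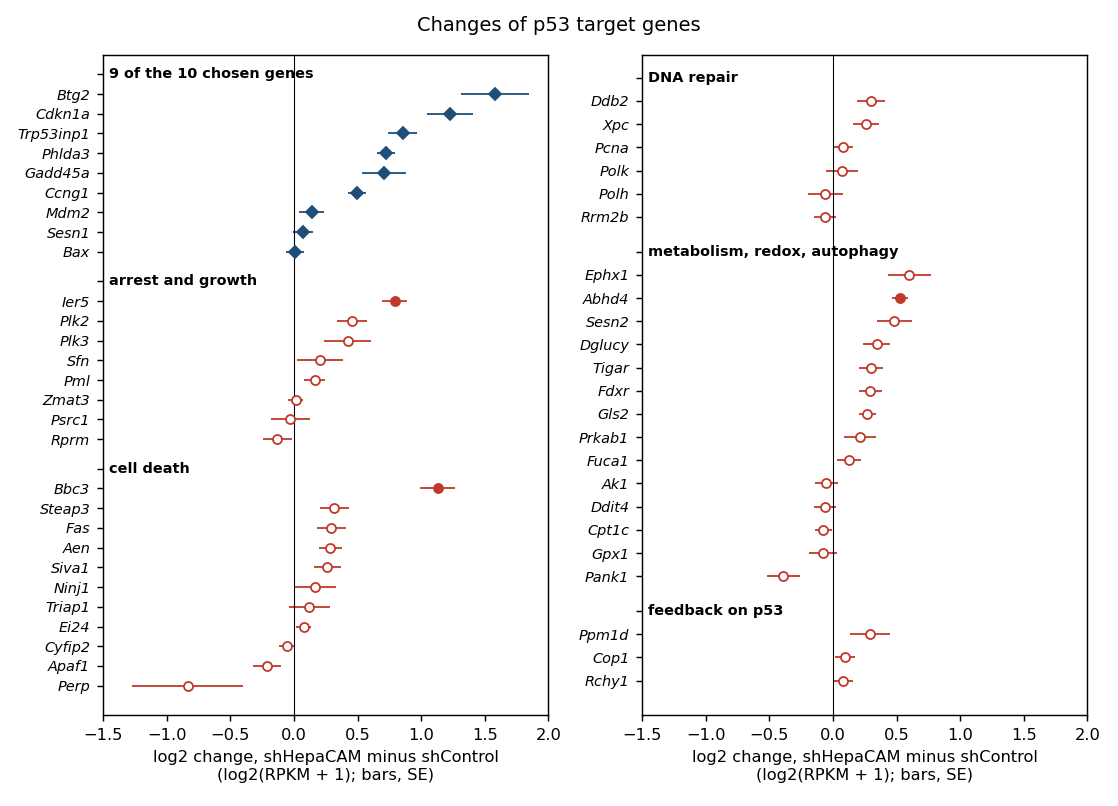
Log2 change (shHepaCAM minus shControl, log2(RPKM + 1)) with its SE for 9 of the 10 chosen genes (blue diamonds, no test) and 42 other p53 targets by function (red). Filled red circles are the 3 genes past an adjusted p of 0.05, Ier5, Bbc3 and Abhd4; open circles did not pass.

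Cell cycle genes that p53 lowers through p21 and the DREAM repressor complex were near the floor in this tissue. Of 16, only 6 reached a mean of 1 RPKM, and none passed in limma or limma-voom. At an unadjusted p of 0.05 there was 1, E2f1, lower, beside 7.92% of all genes. E2f1, a driver of entry into S phase, was at 2.33, 3.13 and 2.11 RPKM in the control and 2.04, 1.47 and 1.72 RPKM in the knockdown libraries (log2 change -0.35, adjusted p = 0.186). The replication helicase subunits Mcm5 and Mcm2 and the mitotic kinase Plk1 changed by 0.28, 0.16 and 0.17, with adjusted p-values of 0.215, 0.43 and 0.425. The summed level of 5 markers of dividing cells was 1.16 to 1.29 RPKM in the control and 1.34 to 1.44 RPKM in the knockdown libraries.

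Relatives of the 10 genes were set beside them by family. Of 20 relatives, 18 were tested: Gadd45g and Gadd45b rose, 0 fell and 16 did not pass, with a median log2 change of 0.11. Among all genes 4.23% were called higher and 1.84% lower. The knockdown libraries lay wholly above the controls for 8 of the 18 and wholly below for 2, beside 20.9% and 10.7% of all genes. In the Gadd45 family all 3 genes were higher in every knockdown library. Gadd45g was at 16.5, 26.3 and 19.7 RPKM in the control and 53.1, 81.3 and 52.6 RPKM in the knockdown libraries (log2 change 1.53, SE 0.21, limma adjusted p = 0.0141). Gadd45b, which is induced by neuronal activity, was at 8.64, 11.2 and 8.36 and at 21.5, 33.9 and 15.1 RPKM (log2 change 1.17, SE 0.26, adjusted p = 0.048, a call lost in 10 of 16 alternatives and an adjusted p of at most 0.158). Both relatives stood at higher levels than Gadd45a in every library.

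The Cdkn1 family did not move together. Cdkn1b, the kinase inhibitor p27, had means of 11.2 ± 0.201 and 11.8 ± 0.838 RPKM (SD, n = 3 each) and a log2 change of 0.08 (SE 0.07, adjusted p = 0.521). Cdkn1c, p57, was at 0.745, 3.85 and 3.92 RPKM in the control and 3.41, 2.70 and 0.299 RPKM in the knockdown libraries, so that its lowest libraries were those low in choroid plexus markers. In the control libraries Cdkn1a lay below Cdkn1b, at 8.65 to 10 against 10.9 to 11.3 RPKM, and in every knockdown library it lay above.

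In the remaining families the relatives did not pass. Btg1 was at 6.82 ± 0.724 and 8.84 ± 0.570 RPKM (log2 change 0.33, SE 0.09, adjusted p = 0.0747) and Ccng2 at 8.2 ± 0.351 and 10.3 ± 0.636 RPKM (0.30, SE 0.07, adjusted p = 0.0532; SD, n = 3 each). Sesn2, a sestrin that is also a target of Atf4, was at 6.54, 7.40 and 5.73 RPKM and at 9.61, 11.5 and 7.80 RPKM (log2 change 0.48, SE 0.14, adjusted p = 0.0927). Sesn3 changed by 0.21 (SE 0.08, adjusted p = 0.181). Sesn2 was counted above among the other targets. The knockdown libraries of Btg1, Ccng2, Sesn2 and Sesn3 lay above the controls, and those of Btg3 overlapped them (log2 change 0.03). The 2 relatives that lay wholly below are named here after their values were seen: Bok, a death protein related to Bax (log2 change -0.31, adjusted p = 0.0601), and Trp53inp2, an autophagy protein (-0.22, adjusted p = 0.171). Bok was called lower in 5 of the 16 alternatives. Of the other relatives of Bax, Bcl2l1 and Mcl1, which block it, changed by -0.16 and 0.27 with overlapping groups. Bak1, a relative of Bax, and Tob1, a relative of Btg2, are named here after their values were seen. Their knockdown libraries lay wholly above the controls, with log2 changes of 0.22 and 0.61 (limma adjusted p = 0.148 and 0.104). Whether a member and its relative differ in their change was not tested.

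**Figure D4:**
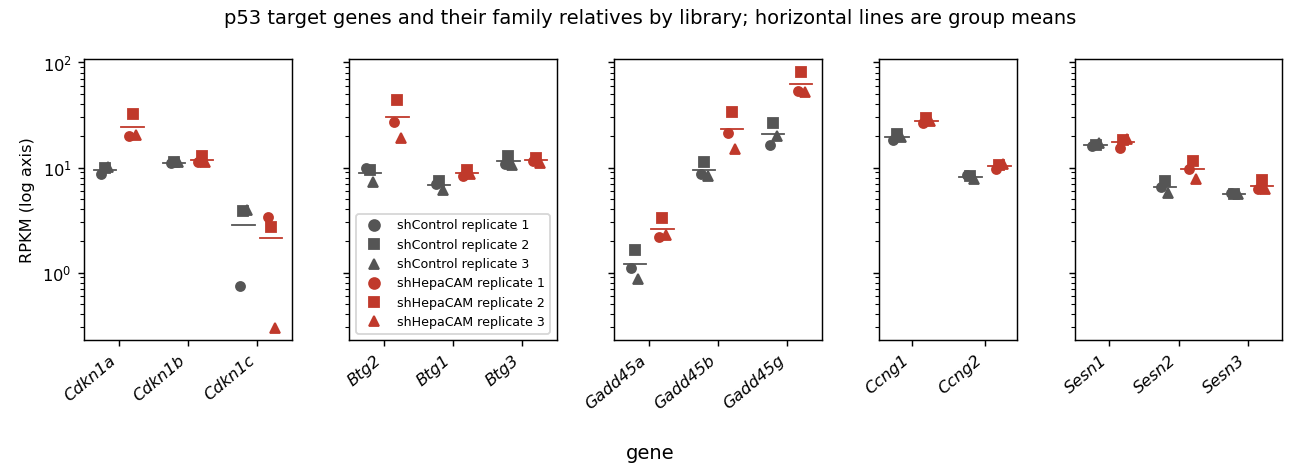
RPKM on a log axis of Cdkn1a, Btg2, Gadd45a, Ccng1 and Sesn1 beside their relatives, 1 point per library, with lines at the group means. The knockdown points of Cdkn1a lie above its controls at 8.65 to 10 RPKM. Those of Cdkn1b average 11.8 RPKM, narrowly above its controls, and the 3 Gadd45 genes all lie higher in the knockdown libraries.

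Markers of some cell types moved in the same libraries, and those of others did not. Of 10 microglia markers 7 rose and 0 fell, and their summed level was 409 to 476 RPKM in the control and 766 to 907 RPKM in the knockdown libraries. Of the 5 B and plasma cell markers tested (8 in all) 4 rose, from a sum of 11.3 to 13.8 RPKM to one of 546 to 1866 RPKM, and both T cell markers tested (of 7) rose, from 1.42 to 2.21 to 5.67 to 8.86 RPKM. Of 6 general neuron markers 3 fell, from a sum of 922 to 958 to one of 584 to 761 RPKM. Of the 7 hippocampal neuron markers 1 fell and 0 rose. Their sum was 230 to 244 RPKM in the control and 220 to 276 RPKM in the knockdown libraries. Of 6 astrocyte markers 1 fell and 0 rose. No oligodendrocyte, endothelial or choroid plexus marker passed. Among all genes 4.23% were called higher and 1.84% lower. No list had a marker at 0 in all libraries. Which cells hold the transcripts of the 10 genes is not given by bulk RNA, and the part of these cells in their levels was not tested.

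**Figure D5:**
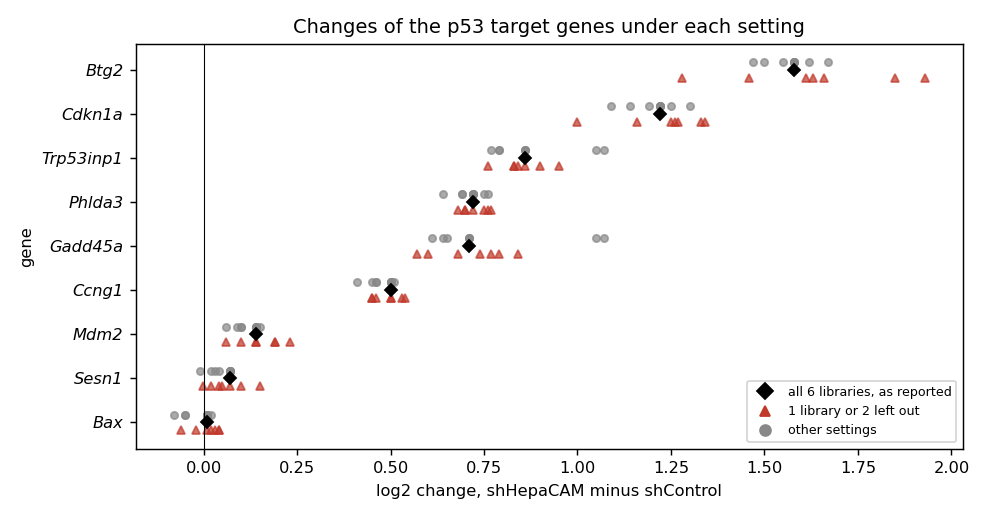
Log2 change of the 9 p53 target genes tested, as reported (black diamonds), with 1 library or both choroid plexus-poor libraries left out (red triangles), and under the other settings (grey circles). Btg2 runs from 1.28 to 1.93 and Cdkn1a from 1.0 to 1.34, while Bax and Sesn1 lie on both sides of 0.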

How the data were processed

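RNA of 3 shControl and 3 shHepaCAM hippocampus libraries was analysed from RPKM values that the authors deposited, 1 file per library. Per the submitters' processing notes, the tools TopHat2 2.0.12 and Bowtie2 2.0.6 and the build mm39 belong to the processing; counter, annotation, multi-mapping and strand settings: not given in the sources used here. GENCODE M21 and its exon lengths named 29805 of 29872 genes; it is on another build, so no gene coordinate is given.

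Reads were worked out from the RPKM values: with these lengths 91.9% of genes were whole within 0.01 read in every library, and another whole-number length made 2414 more genes whole within 0.005, Cdkn1a among them. Depths follow from this step, and exact 95% intervals on reads cover counting error only.

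Groups were compared in R 4.3.3 by limma 3.58.1, its prior variance following a trend on mean level. Values entered as log2(RPKM + 1), and 13864 genes had a mean that reached 1 RPKM, with Benjamini-Hochberg adjustment over all of them and a threshold of 0.05. The design allowed for counts or normalized values, and the second was used. On simulated libraries for shHepaCAM against shControl (13844 genes, dispersion 0.01) it called 34.8%, 88.2% and 98.4% of genes changed 1.5-fold, 2-fold and 4-fold, while 7.0% of the calls fell on genes left unchanged.

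The members, the lists and the naming rule were chosen with earlier results of these data known. Named genes are Hepacam, Trp53, the 10 members, up to 6 genes per direction past the threshold in each list (or the 4 smallest p), the nearest relatives of 5 members, and the 5 genes closest in profile to Cdkn1a. Others named after their values were seen are said to be so, except Btg3, Bcl2l1 and Mcl1, which also lie outside this rule. Sesn2 and Ddit4 are in the lists of p53 targets and of stress response genes; Sco2 is not analysed here.

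The alternatives were a replicate block, each library left out, the pair of libraries low in choroid plexus markers left out, a pseudocount of 0.1, array weights, limma with no trend, filters at 0 and 5 RPKM, median-gene scaling and quantile normalization. Limma-voom on the reads, with depth scaled by the median ratio to the geometric mean, was added after the data were seen. Figures were drawn with matplotlib 3.10.9.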

Additional observations from a re-analysis of the deposited data

How the results depend on the processing

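Over all genes, 842 were past the threshold; the count was 169 with no filter, 157 with the replicate block, 98 to 867 with 1 library left out (98 without shControl replicate 3, 126 without shControl replicate 2, 235 without shControl replicate 1, 328 without shHepaCAM replicate 3 and 421 without shHepaCAM replicate 2) and 104 without both libraries low in choroid plexus markers. The share called higher was 69.7%, and 53.4% with quantile normalization, 49.2% with scaling to the median gene and 54.9% in limma-voom; the median log2 change of all genes was 0.05 in the reported fit and -0.02, -0.03 and 0.00 in these. Of the members, 5 passed, and 3 with no filter, 1 to 5 with 1 library left out and 2 without both libraries. Of the other p53 targets 3 passed, 2 to 4 with 1 library left out and 1 without both. For p53 and its regulators the count of 1 was 0 with no filter, the replicate block, limma without trend, quantile normalization or median-gene scaling and without both libraries, and 0 to 1 with 1 left out. Family relatives past the threshold, 2 as reported, were 1 with scaling to the median gene or without trend, 0 with no filter or without both libraries, 4 with a filter at 5 RPKM or array weights, and 0 to 3 with 1 library left out (1, 1 and 0 without shControl replicates 1, 2 and 3, and 1 without shHepaCAM replicate 2). Among these calls 1 was lower, that of Bok, with the 5 RPKM filter, array weights, quantile normalization and limma-voom and without shHepaCAM replicate 1. Immediate early genes, 2 as reported, were 0 with no filter, 1 without trend, 1 with the replicate block and 0 to 7 with 1 left out (1 without shHepaCAM replicate 1). Stress response genes, 6 as reported, were 3 with no filter, 3 with the replicate block, 2 without both libraries and 2 to 6 with 1 left out. No gene repressed through p21 passed in any setting.

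Bax changed sign with quantile normalization (-0.05), scaling to the median gene (-0.08), limma-voom (-0.05) and without shControl replicate 1 (-0.02) or shHepaCAM replicate 1 (-0.06), and with 1 library left out it ran from -0.06 to 0.04. Sesn1 did so with scaling to the median gene (-0.01) and without both libraries (-0.0009), with a highest value of 0.15 without shHepaCAM replicate 1, Cdkn1b with scaling to the median gene (-0.01) and Cdkn1c without shHepaCAM replicate 3 (0.22), against a lowest value of -0.82 without shControl replicate 1. The other 7 members tested kept a positive log2 change in all settings in which they were tested. The replicate numbers of the titles did not pair the libraries: deviations from the group means correlated at -0.21, 0.02 and -0.14 between same-numbered libraries, and no library was closest to its own number. The highest correlation, 0.27, was between shControl replicate 1 and shHepaCAM replicate 3, both low in choroid plexus markers. With the replicate block 5 members and 3 other p53 targets passed, as in the reported fit. Except where a setting tests fewer libraries or more genes, the cause of these shifts was not tested. With 3 libraries a group, changes of 1.5-fold were called in 34.8% of simulated cases. The simulation gave every gene a dispersion of 0.01 and held no libraries low in choroid plexus markers. This share therefore need not hold for these libraries. For Eda2r and Gadd45a few reads limit the precision.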

Other observations

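Some known p53 targets lay below the filter and were not tested, and they are named here after their values were seen. Pmaip1, the BH3-only death protein Noxa, was at 0.486, 0.588 and 0.533 RPKM in the control and at 1.10, 1.17 and 1.13 RPKM in the knockdown libraries, from 70 and 145 reads in all. At equal depth this is 2.11 times the reads, with an exact 95% interval of 1.58 to 2.86 for counting error. Gdf15, a secreted stress cytokine, had 25 and 79 reads (ratio 3.23, interval 2.04 to 5.28), and Trp53cor1, the long noncoding RNA next to Cdkn1a, had 22 and 47 reads (ratio 2.18, interval 1.29 to 3.80). The reads of Gdf15 were 5, 14 and 6 in the control and 31, 28 and 20 in the knockdown libraries. Those of Trp53cor1 were 11, 7 and 4 and 24, 12 and 11, so that the groups of Gdf15 were apart and those of Trp53cor1 met at 11 reads.

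The genes whose profile over the 6 libraries was closest to that of Cdkn1a were Tnfrsf12a, Gimap3, Drd1, Nptx2 and C4b. Closeness was the root mean square of the differences between profiles of log2(RPKM + 1), each centred on its control mean, and was 0.060, 0.083, 0.146, 0.159 and 0.166. Tnfrsf12a, the receptor of the cytokine TWEAK, stood at 4.73, 5.21 and 5.78 RPKM in the control and at 11.4, 20.5 and 12.0 RPKM in the knockdown libraries. Nptx2, a secreted pentraxin of excitatory synapses, was at 18.6, 16.5 and 17.8 and at 30.7, 50.6 and 36.3 RPKM, and C4b, a complement component, at 29.0, 25.2 and 28.7 and at 56.8, 75.9 and 64.5 RPKM. As with Cdkn1a, shHepaCAM replicate 2 was the highest library for all 5. They were picked for this likeness, so their levels are a description.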
